A study of Mus musculus with 48 samples.

Results

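Hearts of cardiomyocyte-specific Bmal1 knockout mice (CBK) were compared with hearts of mice that carry the Cre transgene alone (Cre CON), using 6 libraries of each, 12 of the 48 libraries of the series, and all genes. CBK mice were homozygous for a floxed Bmal1 allele and hemizygous for Cre driven by the MHCα (Myh6) promoter, which is active in heart muscle cells. Cre CON mice were hemizygous for the same transgene and had no floxed gene. BMAL1 FLOX mice, the littermates of CBK with the floxed allele and no Cre, and WT mice, the littermates of Cre CON, had 6 libraries each and served to measure what differs between the 2 lines in the absence of Cre. All were male C57BL/6 mice, and RNA came from both ventricles, so other cells of the heart, in which this promoter is not active, contributed to every value. The sources used here give neither age nor time of day at collection. CBK and Cre CON came from different lines, so the floxed allele, the genome around it and any difference in housing or handling between the colonies go with the group and cannot be told apart from the loss of BMAL1. In bulk tissue, fewer cells of a type and less RNA per cell cannot be told apart either.

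BMAL1 pairs with CLOCK or NPAS2 to form the activator of the circadian clock, which binds E-box elements and drives the Period, Cryptochrome, REV-ERB and PAR bZIP (Dbp, Tef, Hlf) genes. The Period and Cryptochrome proteins repress that activator. The REV-ERB repressors (Nr1d1, Nr1d2) and the ROR activators compete for a shared element in Bmal1, Npas2, Clock, Cry1 and Nfil3. Nfil3 encodes E4BP4, which represses from D-box elements where the PAR bZIP factors activate. In heart muscle the clock is known to set daily rhythms in fuel use, electrical activity and growth signalling.

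The libraries held 22555717 to 28407868 counts assigned to genes in CBK and 14828331 to 19537993 in Cre CON. Levels are CPM, counts scaled to the TMM-adjusted library size, and differences are log2 fold changes of CBK over Cre CON with their standard error (SE) from edgeR's quasi-likelihood test, called at a Benjamini-Hochberg adjusted p under 0.05 over the 14648 genes tested. Library composition differed between the groups. Mitochondrial transcripts took 17.6% ± 4.56 of assigned counts in CBK (SD, n = 6; 9.55% to 22.6%) and 25.4% ± 1.47 in Cre CON (23.9% to 27.8%). Records in no annotated gene took 8.57% ± 2.98 in CBK and 5.02% ± 0.258 in Cre CON. An unnamed gene, ENSMUSG00000119584, took 1.03% to 13.4% of assigned counts in CBK, the highest in replicate 3, and 0.699% to 1.07% in Cre CON. Biological coefficients of variation between libraries had medians of 24.9% in CBK and 13% in Cre CON. Their part in the results below was not tested beyond the alternatives given at the end.

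Arntl, the annotation's symbol for Bmal1, stood at 5.79 to 12.6 CPM (median 8.02) in CBK, against 0.749 to 3.00 CPM (median 1.34) in Cre CON. The libraries labelled CBK were thus all above those of Cre CON (log2 fold change 2.41, edgeR adjusted p = 6.23e-05, SE 0.28), and the level was 1.04 ± 0.381 CPM in BMAL1 FLOX and 1.01 ± 0.309 CPM in WT. These are whole-gene counts, which pool all exons, so loss of the floxed exons cannot be read from them, and which exons Cre removes is not stated in the labels. Nfil3, the symbol for E4bp4, stood at 30.4 to 46.7 CPM (median 38.9) in CBK, against 6.94 to 11.8 CPM (median 9.64) in Cre CON and rose without overlap (log2 fold change 2.03, edgeR adjusted p = 1.97e-07, SE 0.13). Myh6, whose promoter drives Cre, was not called, at a log2 fold change of 0.31 (edgeR adjusted p = 0.194, SE 0.14).

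CBK hearts differed from Cre CON hearts at 1194 genes, 8.15% of those tested, of which 594 were higher (4.06%) and 600 lower (4.1%). Past 2-fold, 146 were higher and 146 lower, together 1.99% of genes tested. The median absolute log2 fold change was 0.65 among called genes and 0.21 among all genes tested. In 793 of the called genes (66.4%) the 6 CBK libraries did not overlap the 6 Cre CON libraries, and the same was true of 6.14% of all genes tested. Of the 1194 calls, 724 (60.6%) held in each of the 12 fits that leave out 1 library. Without CBK replicate 3, which holds the high share of ENSMUSG00000119584, and CBK replicate 5, which has the lowest mitochondrial share, 1252 genes were called, 661 higher and 591 lower.

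The genes with the smallest p were Dgat2, which encodes an enzyme of the last step of triglyceride synthesis, and Slc41a3, a gene of the SLC41 family of magnesium transporters. Slc41a3 stood at 232 to 325 CPM (median 289) in CBK, against 18.3 to 33.2 CPM (median 27.1) in Cre CON. The groups did not overlap, and Slc41a3 rose (log2 fold change 3.39, edgeR adjusted p = 3.93e-09, SE 0.15). Dgat2 stood at 83.2 to 118 CPM (median 101) in CBK, against 464 to 608 CPM (median 536) in Cre CON, again with no overlap, and fell (log2 fold change -2.43, edgeR adjusted p = 3.93e-09, SE 0.11). Nampt, whose product is the rate-limiting enzyme of NAD salvage, stood at 34.3 to 45.0 CPM (median 43.4) in CBK, against 137 to 209 CPM (median 165) in Cre CON and fell (log2 fold change -2.04, edgeR adjusted p = 5.54e-08, SE 0.12).

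Among the 15 highest called genes were the stress-induced small proline-rich protein gene Sprr1a, the myoregulin gene Mrln and the cell cycle inhibitor gene Cdkn1a. Sprr1a stood at 7.33 to 35.2 CPM (median 24.2) in CBK, against 0.0450 to 0.695 CPM (median 0.306) in Cre CON (log2 fold change 6.06, edgeR adjusted p = 3.16e-06, SE 0.52). Every CBK library was above every Cre CON library. The lowest Cre CON library for Sprr1a lay below the level of 3 counts, so the size of its fold is uncertain. Also among the highest were the iodotyrosine deiodinase gene Iyd at 4.76, the inward rectifier channel gene Kcnj14 at 4.44, the serine protease gene Prss55 at 4.40, the synaptic organiser gene Cbln1 at 3.69, the transcription factor genes Nfe2l3 at 3.12 and Rfx8 at 3.07, and Fhit, which encodes a dinucleotide hydrolase, at 3.02 on the log2 scale. Levels in Cre CON were low for Iyd (median 0.045 CPM), Rfx8 (0.222), Prss55 (0.236), Nfe2l3 (0.273) and Cbln1 (0.318). For each of these the lowest Cre CON library lay below the level of 3 counts, so the size of the fold is uncertain. For Kcnj14, 1 BMAL1 FLOX library was also high. It stood at 1.19 to 41.1 CPM (median 1.89) in BMAL1 FLOX and 0.385 to 1.45 CPM (median 1.12) in WT, groups that overlap, and their log2 difference of 3.04 was not called.

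Among the 15 lowest were the carboxylesterase gene Ces1d at -4.16, the immunoglobulin gene Ighg2c at -3.97, the anoctamin gene Ano4 at -2.89, the cyclic nucleotide-gated channel gene Cngb3 at -2.75, the cytochrome P450 gene Cyp2b10 at -2.91 and the cadherin gene Cdh22 at -2.56 on the log2 scale. Cyp2b10 stood at a mean of 0.137 ± 0.0836 CPM in CBK, against 1.08 ± 0.336 CPM in Cre CON (SD, n = 6 each), and the lines without Cre stood between, at 0.395 ± 0.277 CPM in BMAL1 FLOX and 0.4995 ± 0.238 CPM in WT. Other members of both lists also differed between the lines without Cre and are described with that comparison.

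Because CBK and Cre CON belong to different lines, BMAL1 FLOX was compared with WT in a model of all 24 libraries, and the difference of the 2 differences, (CBK minus Cre CON) minus (BMAL1 FLOX minus WT), was tested in the same model. This difference is called line-adjusted below. BMAL1 FLOX and WT differed at 46 of 15700 genes (0.293%), 24 higher and 22 lower in BMAL1 FLOX, and 912 genes had an unadjusted p under 0.05. Of the 46, 30 (65.2%) were also called in CBK against Cre CON, with the same sign in all 30, and they made up 2.51% of the CBK calls. The 2 comparisons share no library. A CBK call at a gene not called between the lines is not thereby shown to exceed the line difference, which the line-adjusted difference tests. The line-adjusted difference was called at 447 genes (2.85%), 232 higher (1.48%) and 215 lower (1.37%), with 1940 at an unadjusted p under 0.05. This model holds 1 spread for 4 groups whose own spreads differ, as given above for CBK and Cre CON. WT replicate 1 held 126338949 assigned counts, against 17712657 to 18297589 in the other WT libraries. Without it, BMAL1 FLOX and WT differed at 43 genes, and the line-adjusted difference was called at 379.

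The genes that differed between the lines without Cre gathered on chromosome 7, which carries Arntl (positions by GENCODE M21 on GRCm38). Of the 46, 27 (58.7%) lay there, against 7.69% of the genes tested. Trim12a, a gene of the TRIM5 family of antiviral factors, stood at 0.0714 to 1.59 CPM (median 0.250) in CBK, against 11.95 to 16.1 CPM (median 14.7) in Cre CON, and at 0.913 ± 0.633 CPM in BMAL1 FLOX and 14.4 ± 0.778 CPM in WT. Its neighbour Trim5 stood at 0 to 0.170 CPM (median 0.0209) in CBK, against 2.44 to 3.38 CPM (median 2.86) in Cre CON, and at 0.0129 ± 0.0200 CPM in BMAL1 FLOX and 2.55 ± 0.271 CPM in WT. Both thus stood far lower in both groups of the Bmal1 line than in both groups of the Cre line. The processed pseudogene Rps13-ps1, on chromosome 8, showed the reverse. It stood at 30.6 to 135 CPM (median 57.7) in CBK, against 0 to 0.107 CPM (median 0.0289) in Cre CON, and at 59.1 ± 13.8 CPM in BMAL1 FLOX and 0.0467 ± 0.0386 CPM in WT. Line-adjusted differences were -0.70 (SE 0.58, edgeR adjusted p = 0.701) for Trim12a, 1.51 (SE 0.87, edgeR adjusted p = 0.514) for Trim5 and -0.17 (SE 1.35, edgeR adjusted p = 0.979) for Rps13-ps1. The fitted folds of genes near 0 depend on the prior count, so the folds between the groups are not given for these 3. Their line-adjusted differences depend on the prior count as well.

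Among the 15 highest and 15 lowest CBK genes, Gm35082, Rps13-ps1, Rps15a-ps4, Rps15a-ps7, Rps13-ps2, Gm45012, Gm3716, Trim5, Trim12a, Trim30d and Trim34a were called in the same direction between the lines without Cre. Pseudogenes of ribosomal proteins share reads with other copies, so their counts are uncertain. Dgat2, also on chromosome 7, and Slc41a3, on chromosome 6, were called in both comparisons too, but by different amounts. Dgat2 stood at 100.2 ± 13.8 CPM in CBK, against 543 ± 51.8 CPM in Cre CON (SD, n = 6 each), and at 371 ± 63.9 CPM in BMAL1 FLOX and 618 ± 61.7 CPM in WT. Its log2 difference was -2.43 between CBK and Cre CON and -0.73 between BMAL1 FLOX and WT, a line-adjusted -1.69 (SE 0.15, edgeR adjusted p = 2.21e-08). Slc41a3 stood at 279.6 ± 36.4 CPM in CBK, against 26.7 ± 5.95 CPM in Cre CON, and at 36.7 ± 5.65 CPM in BMAL1 FLOX and 23.8 ± 4.71 CPM in WT, a line-adjusted 2.77 (SE 0.20, edgeR adjusted p = 9.13e-10). Nearer to Arntl the share of CBK calls was higher than the 8.15% of all genes, at 14 of 69 genes tested (20.3%) within 100 genes to either side. Of these 69 genes, 3 were called between the lines without Cre, among them Plekha7, which was not called in CBK against Cre CON.

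**Figure D1:**
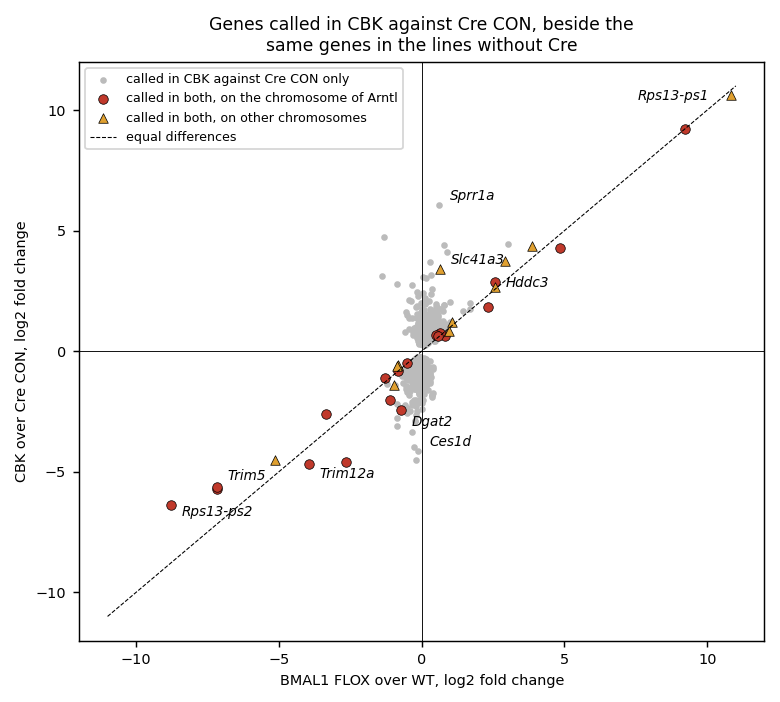
Each point is a gene called in CBK against Cre CON, with its log2 fold change between BMAL1 FLOX and WT on the horizontal axis and between CBK and Cre CON on the vertical axis. The 30 genes called in both comparisons are drawn large, in red where they lie on the chromosome of Arntl, and most lie near the dashed line of equal differences, while Dgat2 and Slc41a3 lie off it; fitted folds of genes with almost no counts in 1 line depend on the prior count.

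The clock genes moved in both directions. Of 25 measured members of the core clock list, 7 were higher and 10 lower in CBK, 68% called against 8.15% of all genes tested, and 13 of these 17 calls held with any 1 library left out. Their median log2 fold change was -0.33, against -0.00 over all genes tested. The line-adjusted difference was called higher for 6 and lower for 7, and none of the list was called between the lines without Cre.

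Most genes of the REV-ERB and ROR element rose. Npas2, which encodes a partner of BMAL1, stood at 5.28 to 11.2 CPM (median 7.76) in CBK, against 1.07 to 2.44 CPM (median 2.25) in Cre CON (log2 fold change 2.02, edgeR adjusted p = 3.5e-05, SE 0.22). Clock, the other partner, stood at 35.8 to 46.8 CPM (median 38.0) in CBK, against 15.3 to 20.7 CPM (median 18.5) in Cre CON (log2 fold change 1.11, edgeR adjusted p = 5.97e-06, SE 0.10). For Npas2 and Clock all 6 CBK libraries lay above all 18 libraries of Cre CON, BMAL1 FLOX and WT. Cry1, which encodes a repressor of the activator, stood at 14.7 to 26.2 CPM (median 25.4) in CBK, against 8.61 to 14.7 CPM (median 12.7) in Cre CON, with 1 CBK library within the range of Cre CON, and rose (log2 fold change 0.92, edgeR adjusted p = 0.00261, SE 0.17). Rorb rose by 1.55 from a low level (2.11 ± 0.781 CPM in CBK, against 0.713 ± 0.430 CPM in Cre CON), a call lost without Cre CON replicate 1, 5 or 6 (highest adjusted p = 0.0593), while Rora was not called (-0.20, edgeR adjusted p = 0.248). Of 9 measured genes of this element, 6 were higher and 1, Nr1d1, was lower (77.8% called against 8.15%), with a median of 1.11. The list was drawn from known targets with earlier results of these data in view, and its direction is not independent evidence.

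Most genes listed as E-box outputs fell. This list too was drawn with earlier results of these data in view, and its direction is not independent evidence. Of 18 measured, 12 were lower and none higher (66.7% called against 8.15%), with a median log2 fold change of -0.89, and 15 had an unadjusted p under 0.05. Dbp stood at 24.1 to 42.3 CPM (median 29.2) in CBK, against 59.5 to 125 CPM (median 79.6) in Cre CON (log2 fold change -1.45, edgeR adjusted p = 0.000155, SE 0.19). Nr1d2, which encodes REV-ERBβ, stood at 19.6 to 34.2 CPM (median 27.2) in CBK, against 59.4 to 93.3 CPM (median 82.5) in Cre CON (log2 fold change -1.53, edgeR adjusted p = 4.72e-06, SE 0.14). Ciart, which encodes a repressor of the CLOCK and BMAL1 activator, stood at 4.30 to 8.04 CPM (median 5.61) in CBK, against 11.3 to 24.3 CPM (median 17.4) in Cre CON (log2 fold change -1.59, edgeR adjusted p = 0.00011, SE 0.20). None of these overlapped between the groups. Tef changed by -0.93, Per3 by -0.99, Bhlhe40 by -0.996 and Per1 by -0.85, with adjusted p from 1.54e-05 to 0.00178 (edgeR). Wee1, which encodes a kinase that holds back mitosis, stood at 3.85 to 8.18 CPM (median 7.08) in CBK, against 16.7 to 24.5 CPM (median 18.5) in Cre CON and fell (log2 fold change -1.57, edgeR adjusted p = 2.07e-05, SE 0.17).

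Other clock outputs were less certain. Nr1d1, which encodes REV-ERBα, stood at 14.6 to 37.5 CPM (median 26.8) in CBK, against 34.5 to 70.7 CPM (median 47.7) in Cre CON, with overlap, and fell (log2 fold change -0.97, edgeR adjusted p = 0.0207, SE 0.24), a call lost without Cre CON replicate 1 or 3 (highest adjusted p = 0.0559). Hlf at -0.72 and Bhlhe41 at -0.56 were called, and lost the call in 7 and 9 of the 12 fits that leave out 1 library, with highest adjusted p of 0.086 and 0.104. Per2 stood at 12.5 to 25.04 CPM (median 19.8) in CBK, against 19.0 to 37.6 CPM (median 29.4) in Cre CON and was not called (log2 fold change -0.62, edgeR adjusted p = 0.0559, SE 0.19). Cry2, Csnk1d and Csnk1e, which encode a repressor and 2 casein kinases of the clock, had log2 fold changes of 0.07, -0.05 and 0.07, none called.

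**Figure D2:**
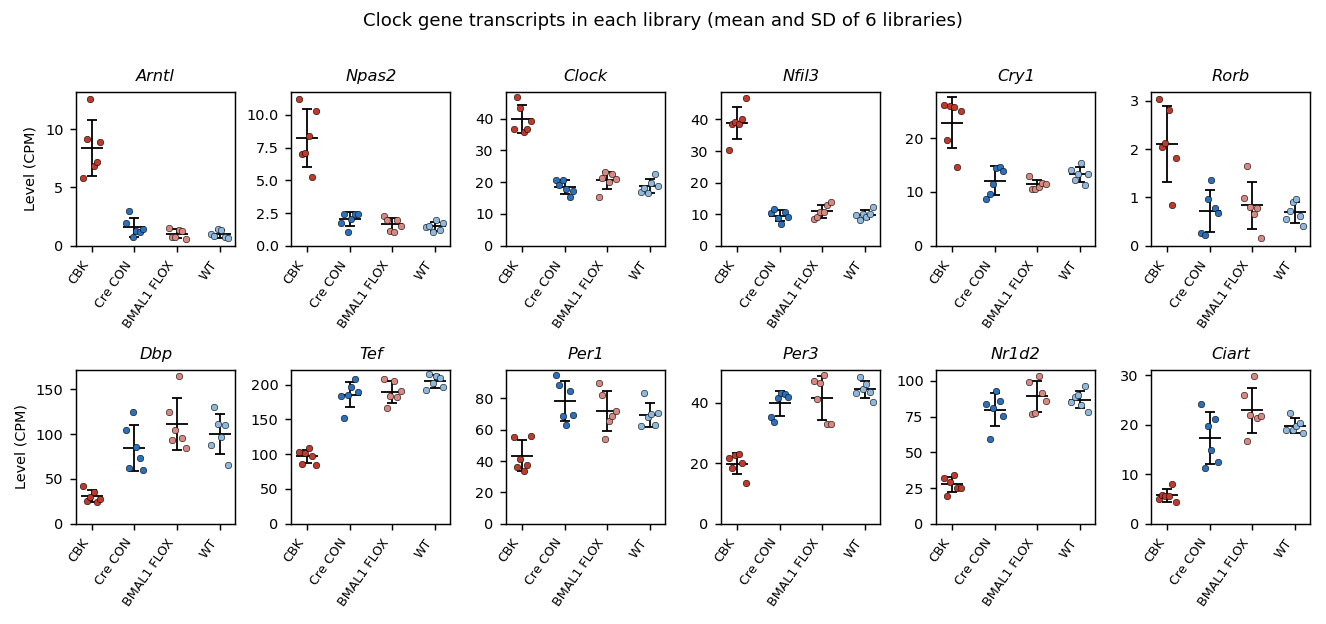
Levels in CPM of 12 clock genes in each of the 6 libraries of CBK, Cre CON, BMAL1 FLOX and WT, with the mean and SD as bars. The top row holds genes higher in CBK and the bottom row genes lower in CBK, and in all panels but those of Cry1, Rorb and Per1 the 6 CBK libraries lie apart from all 18 others.

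Promoter sequences of the clock genes, from 250 bases before to 50 after an annotated start (RefSeq, build GRCm38.p6), were searched for 3 motifs. These were the E-box CACGTG, the D-box as TTATGTAA or TTACGTAA, and TAGGTCA, the core of the element shared by REV-ERB and ROR, each on both strands. A match describes letters, not binding. Shown are Ciart, which fell and had the most E-boxes of the list, Per3, which fell and had the only D-boxes of the list, Nfil3 and Arntl, which rose and had the only TAGGTCA cores (TGACCTA on the strand printed for Nfil3), and Coq10b, which had the smallest p of the called genes with a D-box (TTACATAA as printed). Capitals mark these matches, none of which overlaps another.
Ciart, chr3:95882179-95882478, minus strand: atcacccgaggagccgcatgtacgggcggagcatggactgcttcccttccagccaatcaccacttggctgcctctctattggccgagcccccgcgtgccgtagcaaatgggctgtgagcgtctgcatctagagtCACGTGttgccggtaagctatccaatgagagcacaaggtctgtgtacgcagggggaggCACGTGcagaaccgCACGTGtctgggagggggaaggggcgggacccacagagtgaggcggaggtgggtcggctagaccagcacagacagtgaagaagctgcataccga
Per3, chr4:151044616-151044915, minus strand: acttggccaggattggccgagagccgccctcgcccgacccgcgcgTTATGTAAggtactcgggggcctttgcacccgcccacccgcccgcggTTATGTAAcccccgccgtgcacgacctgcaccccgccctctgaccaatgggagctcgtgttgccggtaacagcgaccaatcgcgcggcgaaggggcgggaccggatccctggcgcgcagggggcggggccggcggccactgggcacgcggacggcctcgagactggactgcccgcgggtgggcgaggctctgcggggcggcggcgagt
Nfil3, chr13:52980990-52981289, minus strand: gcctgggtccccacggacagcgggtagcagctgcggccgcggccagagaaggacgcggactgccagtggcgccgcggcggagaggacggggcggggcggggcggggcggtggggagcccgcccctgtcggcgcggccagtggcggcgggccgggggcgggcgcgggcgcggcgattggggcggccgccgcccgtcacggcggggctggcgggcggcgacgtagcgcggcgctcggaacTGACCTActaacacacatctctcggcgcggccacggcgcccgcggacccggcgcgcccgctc
Arntl, chr7:113207261-113207560, plus strand: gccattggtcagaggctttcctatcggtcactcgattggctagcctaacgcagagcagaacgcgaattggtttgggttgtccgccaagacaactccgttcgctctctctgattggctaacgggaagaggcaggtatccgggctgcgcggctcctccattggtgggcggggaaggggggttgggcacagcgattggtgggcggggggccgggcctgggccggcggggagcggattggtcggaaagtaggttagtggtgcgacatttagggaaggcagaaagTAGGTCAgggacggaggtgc
Coq10b, chr1:55052520-55052819, plus strand: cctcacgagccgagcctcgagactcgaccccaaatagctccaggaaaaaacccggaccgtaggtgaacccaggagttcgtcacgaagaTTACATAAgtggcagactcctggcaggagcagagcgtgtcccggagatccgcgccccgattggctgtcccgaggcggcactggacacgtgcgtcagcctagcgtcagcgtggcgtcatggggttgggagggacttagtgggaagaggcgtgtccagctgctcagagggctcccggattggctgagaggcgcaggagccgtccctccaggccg
In Ciart the E-boxes began 116, 58 and 44 bases before the start, and in Per3 the D-boxes began 205 and 158 bases before it. The Nfil3 core began 12 bases before its start and the Arntl core at base 30 after the later of its 2 starts in the table. Coq10b also holds an E-box, printed in lower case.

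Over the genes tested, 10711 had a promoter in the table, 430 of them called lower and 442 called higher. A D-box was found in 12 of the 430 lower genes (2.79%), in 1 of the 442 higher genes (0.226%) and in 95 of all 10711 (0.887%). An E-box was found in 13.3% of lower, 11.8% of higher and 11.5% of all these genes, and the TAGGTCA core in 1.86%, 3.62% and 2.24%. The 12 lower genes with a D-box, named for that match after their values were seen, included Per3, Coq10b, a gene of coenzyme Q function, Ptgds, which encodes a prostaglandin D synthase, the prolactin receptor gene Prlr, the granzyme gene Gzmm, the scaffold gene Homer2 and the kinase gene Map2k6. Coq10b averaged 15.9 ± 2.25 CPM in CBK and 43.6 ± 5.88 CPM in Cre CON, a log2 fold change of -1.45 (edgeR adjusted p = 1.43e-06, SE 0.12). Ptgds averaged 65.9 ± 24.1 CPM in CBK and 248 ± 43.3 CPM in Cre CON, a log2 fold change of -1.90 (edgeR adjusted p = 4.17e-05, SE 0.22). The 1 higher gene was Ankrd45, at 0.80. One of the 12, Gm3716, was also lower in BMAL1 FLOX than in WT. No test was made of these shares.

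Of 13 measured genes described as targets of the D-box factors, 9 were lower and 1 was higher in CBK (76.9% called against 8.15%), with a median of -0.97. Ces1d, which encodes a carboxylesterase that hydrolyses triglyceride, stood at 6.32 to 18.1 CPM (median 7.19) in CBK, against 108 to 202 CPM (median 166) in Cre CON (log2 fold change -4.16, edgeR adjusted p = 2.14e-07, SE 0.27). The highest CBK library was far below the lowest Cre CON library, and the line-adjusted difference was -4.03 (SE 0.33, edgeR adjusted p = 3.23e-08). Ces1d has near-identical neighbours, so its counts may miss reads shared with them. Cyp2b10 was also lower. The remaining lower members, Bhlhe40, Bhlhe41, Ciart, Nr1d1, Nr1d2, Per1 and Per3, were counted among the E-box outputs above as well. The D-box and E-box lists are thus not separate results. Of 9 members of the D-box list with a promoter in the table, 1 held a D-box and 3 held an E-box. Of 15 such members of the E-box list, 5 held an E-box.

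Triglyceride genes were called in both directions. Of 32 measured, 4 were higher and 7 lower (34.4% called against 8.15%), and 9 of the 11 calls held with any 1 library left out. Beside Dgat2 and Ces1d, the acyltransferase gene Gpat3 fell, from the first step of the pathway (log2 fold change -1.07, edgeR adjusted p = 6.69e-05, SE 0.13). Pnpla3, which encodes a lipid droplet protein, stood at 3.39 to 6.31 CPM (median 4.39) in CBK, against 0.265 to 0.991 CPM (median 0.667) in Cre CON and rose without overlap (log2 fold change 2.78, edgeR adjusted p = 1.5e-05, SE 0.28). Further members named after their values were seen were Agpat3 (0.74), the phosphatidate phosphatase gene Lpin1 (0.70) and Dgat1 (0.52), which rose, and the lipase inhibitor gene G0s2 (-0.65), Gpam (-0.43), Acaca (-0.44) and Acacb (-0.38), which fell. Acaca and Acacb lost the call in 11 and 7 of the 12 fits that leave out 1 library (highest adjusted p = 0.130 and 0.0895). The 2 diacylglycerol acyltransferase genes, Dgat2 and Dgat1, were thus called in opposite directions.

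Fatty acid uptake and oxidation showed a share of calls near the background, with 2 higher and 2 lower of 39 measured (10.3% against 8.15%) and no line-adjusted call by edgeR or limma and 1 by DESeq2 (4 at an unadjusted p under 0.05). The mitochondrial carrier gene Ucp2 stood at 221 to 516 CPM (median 244) in CBK, against 126.1 to 156 CPM (median 128) in Cre CON and rose (log2 fold change 1.26, edgeR adjusted p = 0.00167, SE 0.22), with a line-adjusted difference of 0.66 (SE 0.31, edgeR adjusted p = 0.382). The carnitine transporter gene Slc22a5 fell by 0.62 on the log2 scale. The fatty acid transporter gene Slc27a4 (0.45) and the carnitine carrier gene Slc25a20 (-0.37) lost the call in 9 and 3 of the 12 fits that leave out 1 library, with highest adjusted p of 0.118 and 0.0699.

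Ketone body genes fell where they were called. Of 13 measured, 3 were lower and none higher (23.1% called against 8.15%), and 4 had an unadjusted p under 0.05. Bdh1, which encodes the enzyme that interconverts hydroxybutyrate and acetoacetate, stood at 9.58 to 36.0 CPM (median 23.7) in CBK, against 42.9 to 151 CPM (median 87.3) in Cre CON (log2 fold change -1.89, edgeR adjusted p = 0.00218, SE 0.34). The groups did not overlap although both spread widely, and the line-adjusted difference was -2.25 (SE 0.53, edgeR adjusted p = 0.0202). Over this list the line-adjusted difference was called lower for 3 genes by edgeR and by DESeq2, and for none by limma. The monocarboxylate transporter genes Slc16a7 (1.32 to 2.57 CPM (median 1.97) in CBK, against 4.44 to 7.61 CPM (median 5.76) in Cre CON) and Slc16a1 fell, with log2 fold changes of -1.57 and -0.46 and adjusted p = 0.000108 and 0.00374 (edgeR). Among 18 measured genes of NAD synthesis and use, Nampt and the NAD kinase gene Nadk fell and none rose, a share near the background (11.1% against 8.15%). Nadk, at -0.42, lost the call in 8 of the 12 fits that leave out 1 library, with a highest adjusted p of 0.0927.

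Branched-chain amino acid genes were called in both directions. Of 24 measured, 3 were higher and 2 lower (20.8% called against 8.15%), with a median of -0.09. Klf15, which encodes a regulator of this pathway and of potassium channel genes, stood at 31.6 to 46.0 CPM (median 36.8) in CBK, against 47.1 to 61.5 CPM (median 55.01) in Cre CON and fell (log2 fold change -0.53, edgeR adjusted p = 0.00585, SE 0.11). Bckdhb, which encodes a subunit of the rate-limiting dehydrogenase, fell by 0.49 (edgeR adjusted p = 0.00854), and the later enzyme genes Hibch and Acad8 rose by 0.40 and 0.28. Acad8 was not called without Cre CON replicate 3 (adjusted p = 0.0627). The aminotransferase gene Bcat2, named after its value was seen, rose by 0.53 and lost the call in 8 such fits, with a highest adjusted p of 0.105.

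In glucose handling, 4 of 38 measured genes were higher and 3 lower (18.4% called against 8.15%). Slc2a4, which encodes the insulin-responsive transporter GLUT4, stood at 285 to 325 CPM (median 306) in CBK, against 413 to 481 CPM (median 423) in Cre CON and fell (log2 fold change -0.51, edgeR adjusted p = 0.000479, SE 0.08). Pfkp, which encodes the platelet form of phosphofructokinase, stood at 97.8 to 149 CPM (median 133) in CBK, against 44.3 to 60.5 CPM (median 56.0) in Cre CON and rose (log2 fold change 1.27, edgeR adjusted p = 5.4e-06, SE 0.12). Neither overlapped between groups. The liver form Pfkl rose by 0.60 and the glycogen-targeting phosphatase subunit gene Ppp1r3c by 0.64, with line-adjusted differences of 0.38 (edgeR adjusted p = 0.275) and 0.79 (edgeR adjusted p = 0.00414).

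Insulin and AKT signalling held 3 higher and 7 lower of 32 measured genes (31.25% called against 8.15%), and the line-adjusted difference was called lower for 2. Akt1, which encodes the central kinase, stood at 69.5 to 122 CPM (median 107) in CBK, against 189 to 225 CPM (median 200.1) in Cre CON and fell (log2 fold change -1.01, edgeR adjusted p = 0.000107, SE 0.13), with a line-adjusted -0.86 (SE 0.16, edgeR adjusted p = 0.00139). Pik3r1, a regulatory subunit gene of phosphoinositide 3-kinase, fell by 0.50 and the pseudokinase gene Trib1 fell by 0.61. Ddit4, which encodes an inhibitor of mTORC1, stood at 75.9 to 179.9 CPM (median 112) in CBK, against 17.9 to 59.4 CPM (median 45.3) in Cre CON and rose (log2 fold change 1.47, edgeR adjusted p = 0.00271, SE 0.27), with a line-adjusted difference that was not called, 0.95 (SE 0.40, edgeR adjusted p = 0.319). Irs2, the gene of an insulin receptor substrate, was named after its value was seen and fell by 1.15 on the log2 scale (edgeR adjusted p = 0.0107).

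**Figure D3:**
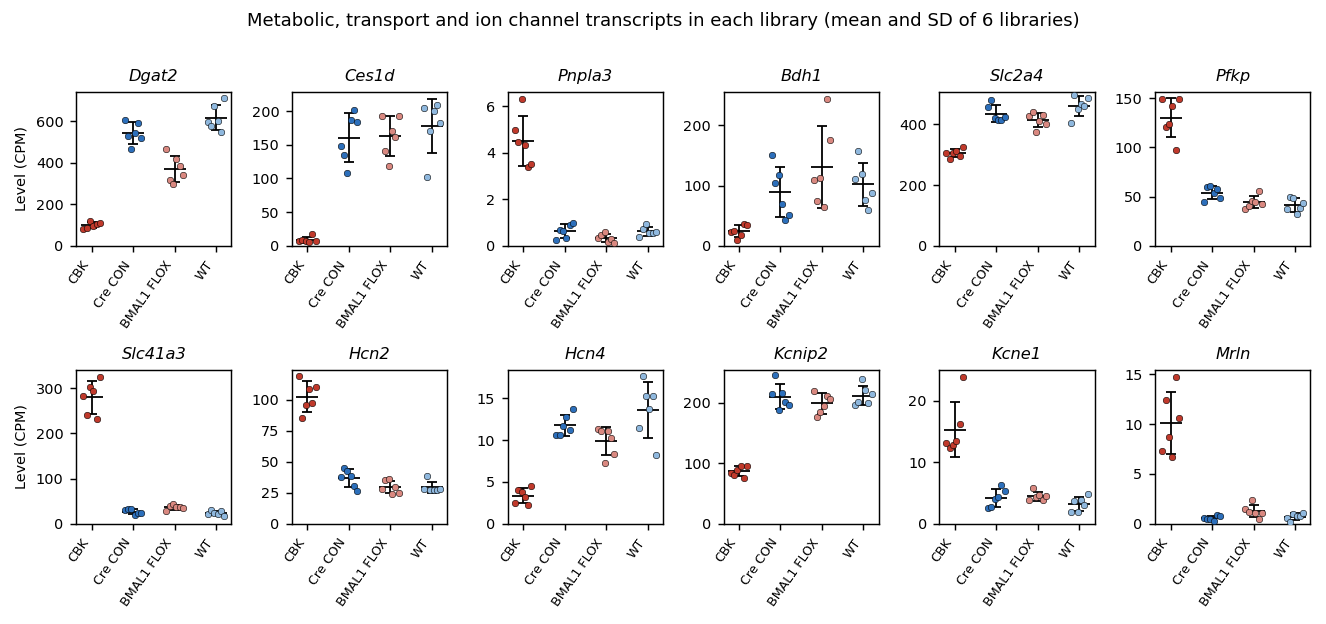
Levels in CPM of 12 genes of lipid, ketone and glucose handling, magnesium transport, electrical activity and calcium cycling in each of the 6 libraries of CBK, Cre CON, BMAL1 FLOX and WT, with the mean and SD as bars. In every panel the 6 CBK libraries stand apart from all 18 others, and in Dgat2 the BMAL1 FLOX libraries also stand below WT.

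Transcripts of the mitochondrial genome were lower in CBK. Their share of assigned counts differed by -7.77 percentage points from Cre CON, with no overlap (exact permutation test over samples, two-sided p = 0.002165, the smallest it can give). The same share was also lower in BMAL1 FLOX than in WT, at 21.4% ± 2.94 against 26.2% ± 2.72 (exact p = 0.01732). Of 11 measured genes, 4 were lower (36.4% called against 8.15%), with a median of -0.64, and the line-adjusted difference was called for none by edgeR, DESeq2 or limma, with 1 at an unadjusted p under 0.05. The complex I subunit genes mt-Nd2 and mt-Nd1 fell, with log2 fold changes of -0.69 and -0.64 (edgeR adjusted p = 0.0157 and 0.0158). mt-Atp6, counted at only 1.95 ± 0.651 CPM in CBK, against 4.53 ± 0.793 CPM in Cre CON (SD, n = 6 each), changed by -1.20, and mt-Co3 by -0.87, a call lost in 9 of the 12 fits that leave out 1 library (highest adjusted p = 0.097). Of 37 measured nuclear genes of the respiratory chain, none was called by edgeR or limma and 2 were called by DESeq2, 4 had an unadjusted p under 0.05, and the median was 0.23.

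**Figure D4:**
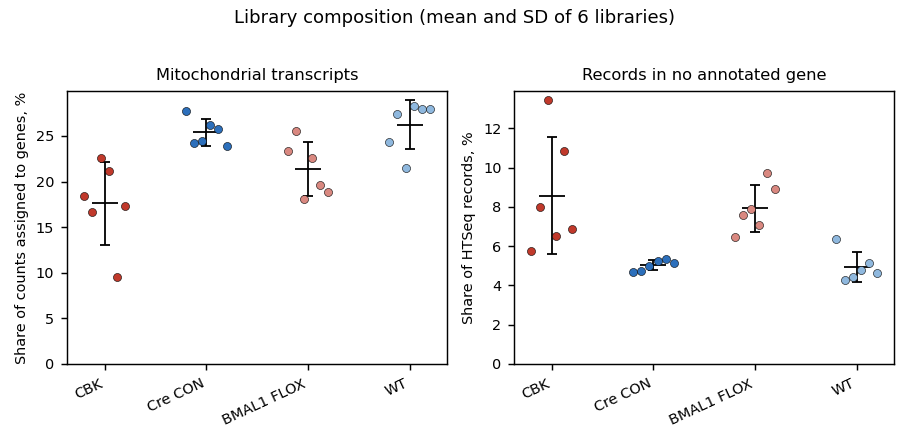
Share of assigned counts from mitochondrial transcripts (left) and share of counting records in no annotated gene (right) in each library of CBK, Cre CON, BMAL1 FLOX and WT, with mean and SD. Both groups of the Bmal1 line have lower mitochondrial shares and more records outside genes than both groups of the Cre line on average, and the lowest mitochondrial share is a CBK library at 9.55%.

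Potassium channel genes were mostly lower in CBK where they were called. Of 21 measured members of the list, 8 were lower, among them Klf15, which encodes a regulator and not a channel. In all, 1 was higher (42.9% called against 8.15%), and 6 of the 9 calls held with any 1 library left out. The line-adjusted difference was called lower for 4 and higher for 1 by edgeR and by DESeq2. By limma it was called lower for 4 and higher for none. Kcnip2, which encodes a subunit of the transient outward channel, stood at 75.9 to 95.8 CPM (median 86.8) in CBK, against 188 to 246 CPM (median 208) in Cre CON (log2 fold change -1.27, edgeR adjusted p = 3.91e-07, SE 0.09). Kcnv2, a gene of a silent channel subunit, fell by 1.26 (3.29 ± 0.369 CPM in CBK, against 7.94 ± 3.17 CPM in Cre CON; SD, n = 6 each). Abcc9, which encodes the sulfonylurea receptor of the ATP-sensitive channel, stood at 54.2 to 128 CPM (median 108) in CBK, against 164 to 208 CPM (median 199.7) in Cre CON (log2 fold change -0.92, edgeR adjusted p = 0.00241, SE 0.16). Abcc9 is also a marker of mural cells, whose summed markers were lower in CBK, as given below, and the part of those cells in its fall was not tested. Kcne1, which encodes a subunit of the slow delayed rectifier, stood at 12.4 to 23.9 CPM (median 13.3) in CBK, against 2.52 to 6.34 CPM (median 4.20) in Cre CON and rose without overlap (log2 fold change 1.85, edgeR adjusted p = 0.000108, SE 0.23). Members named after their values were seen were Kcnh2 at -0.57, Kcnj5 at -0.54, Kcnq1 at -0.41 and Kcnj11 at -0.32, of which Kcnj5, Kcnq1 and Kcnj11 lost the call in 7, 10 and 10 of the 12 fits, with highest adjusted p of 0.101, 0.1203 and 0.105.

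The pacemaker channel genes moved apart. Hcn2 stood at 84.8 to 119 CPM (median 103) in CBK, against 26.7 to 44.8 CPM (median 38.0) in Cre CON and rose (log2 fold change 1.49, edgeR adjusted p = 3.24e-06, SE 0.13). Hcn4, the main form of the sinus node, stood at 2.26 to 4.50 CPM (median 3.48) in CBK, against 10.6 to 13.8 CPM (median 11.4) in Cre CON and fell (log2 fold change -1.80, edgeR adjusted p = 5.9e-06, SE 0.16). In both, no CBK library reached any of the 18 other libraries. Of 20 measured pacemaker and conduction genes, 2 were higher and 4 lower (30% called against 8.15%), and 2 of these 6 calls, those of Hcn2 and Hcn4, held with any 1 library left out. Cntn2, a marker gene of the conduction system, at -1.17, and the cardiac transcription factor gene Nkx2-5, at 0.43, each lost the call in 5 of the 12 fits, with highest adjusted p of 0.0689 and 0.0652.

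Calcium cycling genes were called higher at 4 and lower at 2 of 27 measured (22.2% against 8.15%). Mrln encodes myoregulin, a micropeptide that inhibits the calcium pump SERCA in skeletal muscle, and stood at 6.70 to 14.7 CPM (median 9.69) in CBK, against 0.297 to 0.831 CPM (median 0.505) in Cre CON (log2 fold change 4.12, edgeR adjusted p = 2.14e-07, SE 0.27). Pln, which encodes the cardiac SERCA inhibitor phospholamban, stood at 654 to 1089 CPM (median 831) in CBK, against 1152 to 1321 CPM (median 1229.9) in Cre CON and fell (log2 fold change -0.54, edgeR adjusted p = 0.00617, SE 0.11), with a line-adjusted difference that was not called, -0.33 (SE 0.13, edgeR adjusted p = 0.253). The calsequestrin gene Casq2 stood at 1033 to 1305 CPM (median 1232) in CBK, against 745 to 907 CPM (median 788) in Cre CON and rose (log2 fold change 0.58, edgeR adjusted p = 0.00059, SE 0.09). Asph, whose locus encodes junctin, rose by 0.54, and the calcium channel subunit gene Cacnb2 fell by 0.38 (edgeR adjusted p = 0.00227 and 0.00473). Mrln and Pln were thus called in opposite directions, and the gene of a further SERCA inhibitor, sarcolipin (Sln), was not called (log2 fold change 0.43, edgeR adjusted p = 0.699).

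Hypertrophy and fetal stress genes were mostly higher in CBK where they were called. Of 22 measured, 7 were higher and 1 lower (36.4% called against 8.15%), with a median of 0.35. The line-adjusted difference was called higher for 4 and lower for 1 by edgeR. DESeq2 called it higher for 5 and lower for 1, and limma higher for 3 and lower for none. Rcan1, a feedback inhibitor gene of calcineurin, stood at 154 to 237 CPM (median 216) in CBK, against 54.5 to 71.9 CPM (median 62.5) in Cre CON (log2 fold change 1.72, edgeR adjusted p = 1.77e-07, SE 0.11). Xirp2, which encodes an actin-binding repeat protein, stood at 393 to 694 CPM (median 576) in CBK, against 264 to 377 CPM (median 288) in Cre CON (log2 fold change 0.87, edgeR adjusted p = 0.000892, SE 0.14). The skeletal actin gene Acta1 (1.02), Ankrd1 (0.80), Uck2 (0.55) and Xirp1 (0.38), named after their values were seen, were also higher. Ankrd1 lost the call in 8 of the 12 fits that leave out 1 library (highest adjusted p = 0.0953). Acta2, the smooth muscle actin gene, was the member that fell (log2 fold change -0.99, edgeR adjusted p = 0.00718, SE 0.21). Its level was 157 ± 29.6 CPM in CBK, against 313 ± 109 CPM in Cre CON (SD, n = 6 each), and 174 ± 40.6 CPM in BMAL1 FLOX and 161 ± 15.1 CPM in WT, so that Cre CON stood above the other 3 groups.

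In the contractile apparatus, 3 of 20 measured sarcomere genes were higher and none lower (15% called against 8.15%), with a median of 0.27. Myom1, an M-band gene, stood at 1488 to 1754 CPM (median 1600.3) in CBK, against 950.4 to 1097 CPM (median 1054) in Cre CON (log2 fold change 0.66, edgeR adjusted p = 9.57e-05, SE 0.08) and Mybpc3, which encodes cardiac myosin-binding protein C, at 4617 to 5695 CPM (median 5207) in CBK, against 3036 to 3906 CPM (median 3514) in Cre CON (log2 fold change 0.58, edgeR adjusted p = 0.00112, SE 0.10). The slow skeletal troponin gene Tnnt1, at 0.71, lost the call in 7 of the 12 fits (highest adjusted p = 0.106). Z-disc genes divided, with 2 higher and 3 lower of 19 measured (26.3% called against 8.15%). Tcap, which encodes the titin cap, stood at 432 to 1392 CPM (median 462) in CBK, against 1308 to 2001 CPM (median 1620.3) in Cre CON and fell (log2 fold change -1.30, edgeR adjusted p = 0.00666, SE 0.27), with the highest CBK library, replicate 5, inside the Cre CON range. Myot, the myotilin gene, fell by 1.59 and Csrp3, the muscle LIM protein gene, rose by 0.92 (edgeR adjusted p = 0.000188 and 0.000341). The cardiomyocyte marker sum was higher in CBK by 0.33 on the log2 scale (exact permutation p = 0.01732, adjusted over 14 marker lists 0.1212), and its part in these gains was not tested.

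Stress pathways gave few calls. Cdkn1a, a p53 target gene that encodes the cell cycle inhibitor p21, stood at 105 to 230.2 CPM (median 145) in CBK, against 12.99 to 27.6 CPM (median 16.7) in Cre CON and rose (log2 fold change 3.15, edgeR adjusted p = 6.52e-07, SE 0.23). Of the 20 measured p53 targets (15% called against 8.15%), 2 others were called, Gadd45g at 0.86 and Sesn1 at -0.39, and both lost the call in 8 and 10 of the 12 fits (highest adjusted p = 0.108 and 0.112). Integrated stress response genes were higher at 4 of 24 (16.7% against 8.15%), namely Mthfd2 (1.14), Asns (1.03), Trib3 (0.71) and Phgdh (0.64), enzymes of one-carbon, asparagine and serine synthesis and a pseudokinase. Each of the 4 lost its call in 4 to 11 of the 12 fits (highest adjusted p = 0.107). None of the 24 measured members of the list had a line-adjusted call by edgeR, DESeq2 or limma. Of the 24, 5 had an unadjusted line-adjusted p under 0.05. Herpud1, of endoplasmic reticulum degradation, stood at 95.5 to 149 CPM (median 117) in CBK, against 182 to 265 CPM (median 221) in Cre CON and fell (log2 fold change -0.87, edgeR adjusted p = 0.000143, SE 0.11). It was the only 1 of 20 chaperone list members called, a share below the background (5% against 8.15%).

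Of 27 measured NRF2 and glutathione genes, 3 were higher and none lower, a share near the background (11.1% against 8.15%). The quinone reductase gene Nqo1 stood at 71.7 to 90.1 CPM (median 79.9) in CBK, against 40.9 to 51.3 CPM (median 48.1) in Cre CON (log2 fold change 0.79, edgeR adjusted p = 6.69e-05, SE 0.09), and the sulfiredoxin gene Srxn1 rose by 0.52. The glutathione reductase gene Gsr, at 0.37, lost the call in 9 of the 12 fits (highest adjusted p = 0.0973). Of 26 autophagy genes 3 were higher (11.5% against 8.15%, also near the background), Wipi1 (0.45), Atg13 (0.39) and the cargo receptor gene Sqstm1 (0.31), the last lost in 8 of the 12 fits (highest adjusted p = 0.0771). Magnesium transport held, beside Slc41a3, the mitochondrial channel gene Mrs2, higher by 0.41 and lost without Cre CON replicate 5 or 6 (highest adjusted p = 0.0564), and Slc41a1, which fell by 0.67, of 13 measured (23.1% called against 8.15%). Thus Slc41a3 and Slc41a1, 2 genes of 1 family, were called in opposite directions. The line-adjusted difference of Slc41a1 was not called. Its CBK libraries, at 25.9 to 56.9 CPM, overlapped those of BMAL1 FLOX, at 47.8 to 75.4 CPM. Among 19 phosphodiesterase genes (15.8% called against 8.15%) Pde3a rose by 0.44, and Pde7a and Pde7b had log2 fold changes of -0.59 and -0.72, both called. Pde3a also stood higher in BMAL1 FLOX (56.7 to 73.0 CPM) than in WT (47.9 to 56.0 CPM), without overlap but not called. Its CBK libraries, at 59.3 to 81.6 CPM, overlapped those of BMAL1 FLOX, and its line-adjusted difference was not called.

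Immediate early genes fell where called, at 4 of 23 (17.4% against 8.15%), with 8 at an unadjusted p under 0.05. Ier3 stood at 13 to 19.1 CPM (median 16.4) in CBK, against 38.9 to 62.7 CPM (median 43.3) in Cre CON without overlap (log2 fold change -1.55, edgeR adjusted p = 3.41e-06, SE 0.13). Nr4a3 fell by 1.498, with a line-adjusted difference of -0.96 (SE 0.70, edgeR adjusted p = 0.65), while Nr4a1 (-1.37) and Ier5 (-0.53) lost the call in 7 of the 12 fits each (highest adjusted p = 0.121 and 0.0846). Extracellular matrix genes held 1 higher, Col8a1 at 0.74, and 3 lower of 40 measured (10% against 8.15%), Fbln1 at -0.52, Col14a1 at -0.71 and the growth factor gene Tgfb1 at -0.33, of which Col14a1 and Tgfb1 lost the call in 9 and 8 of the 12 fits (highest adjusted p = 0.1258 and 0.1004). The macrophage growth factor gene Csf1 stood at 23.9 to 35.3 CPM (median 27.6) in CBK, against 45.2 to 52.4 CPM (median 49.1) in Cre CON and fell (log2 fold change -0.76, edgeR adjusted p = 0.000476, SE 0.11), and the chemokine gene Cxcl12 fell by 0.50, with 3 of 16 measured cytokine and chemokine genes called (18.75% against 8.15%). No member of the interferon (25 measured), cell cycle (24) or heat shock (15) lists was called by edgeR or limma, with 6, 6 and 3 at an unadjusted p under 0.05, and DESeq2 called 1 cell cycle gene.

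**Figure D5:**
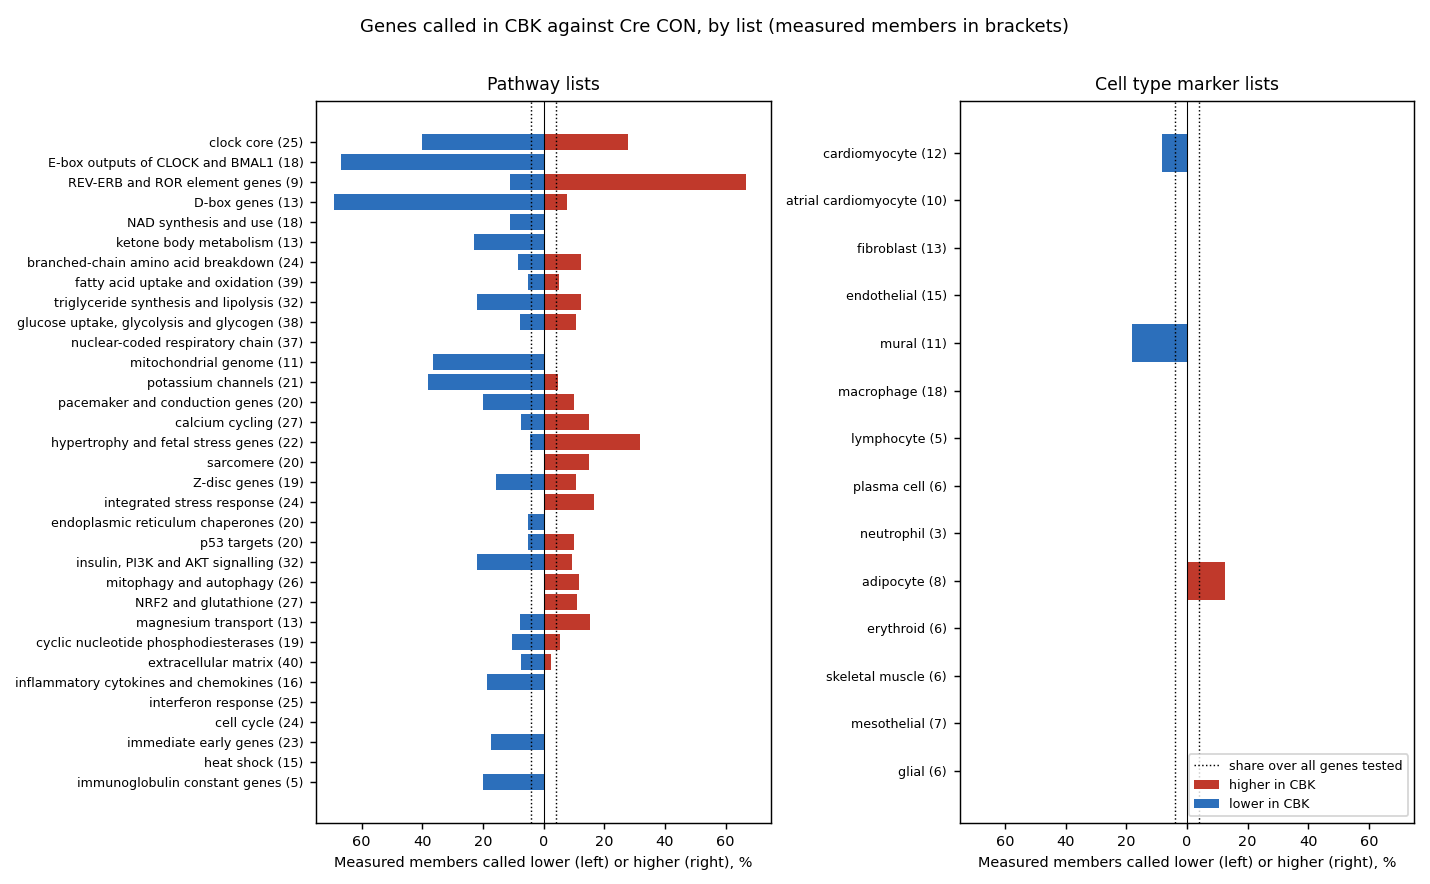
Share of the measured members of each list called lower (blue, left) or higher (red, right) in CBK against Cre CON, with the number of measured members in brackets and dotted lines at the shares over all genes tested, 4.1% lower and 4.06% higher. The longest bars are the D-box and E-box lists on the lower side and the REV-ERB and ROR list on the higher side. The D-box and E-box lists share genes, and most cell type marker lists have no bar.

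Markers of the cell types of the heart were measured as sums of their levels. Mural cell markers summed to 725.5 to 964.5 CPM in CBK (median 896), against 1029 to 1353 CPM in Cre CON (median 1217), a log2 difference of -0.44 without overlap (exact permutation p = 0.002165, adjusted over 14 lists 0.0303). The sum was 1018 to 1104 CPM in BMAL1 FLOX and 948.9 to 1104 CPM in WT, a log2 difference of 0.04, so that the Cre CON median lay above both. Of 11 measured mural markers, Acta2 and Abcc9 were lower (18.2% called against 8.15% of all genes tested). The others were not called, among them Rgs5 at -0.14 and Myh11 at -0.40. The other 12 lists, beside the cardiomyocyte list above, had adjusted p of 0.774 or more, and fibroblast, endothelial, macrophage, atrial and erythroid markers had no call by edgeR or limma, with 1, 3, 4, 0 and 3 at an unadjusted p under 0.05, and DESeq2 called 1 endothelial gene. Among 8 measured adipocyte markers Cidea alone was called (12.5% against 8.15%) and rose by 0.69, a gene known from brown fat.

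Immunoglobulin transcripts showed 1 large difference. Ighg2c, the constant region gene of an IgG subclass, stood at 0.127 to 0.571 CPM (median 0.250) in CBK, against 3.18 to 6.44 CPM (median 4.42) in Cre CON (log2 fold change -3.97, edgeR adjusted p = 2.19e-06, SE 0.33), and at 5.25 ± 1.05 CPM in BMAL1 FLOX and 6.34 ± 2.28 CPM in WT. All 18 other libraries lay above CBK. The plasma cell markers Xbp1, Sdc1 and Prdm1 were not called (-0.12, 0.09 and 0.45), nor was Ighm, the constant region gene of IgM (0.19). Ighg2c was the only 1 of 5 measured immunoglobulin genes called (20% against 8.15% of all genes tested). Ighg2c has near-identical relatives, so its counts may miss shared reads.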

How the data were processed

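RNA-seq libraries of biventricular hearts were made with the SMARTER mRNA-Seq kit from 1.3 ug of total RNA isolated with RNeasy columns, per the labels' protocols. The submitters' processing notes name bcl2fastq 2.18.0.12, STAR 2.7.9a, HTSeq 0.11.1 and the mouse build GRCm39, with no roles or order. The sources used here do not give the annotation release, the use of strand or read filters, so genes that overlap on opposite strands may share reads. The authors deposited raw counts per gene for all 48 libraries in 1 table of 53700 genes. Its 5 summary lines, among them records in no gene, were left out of library sizes and tests. Symbols were found for 52093 genes (97.0%) in GENCODE M21, which is built on GRCm38 and was used for names, chromosomes and gene order alone. No 2 libraries held identical counts, and 0 columns were left unmapped.

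The comparison was fitted on 12 libraries with edgeR 4.0.16 (R 4.3.3; TMM scaling, filterByExpr, robust quasi-likelihood test) and called at a Benjamini-Hochberg adjusted p under 0.05. The comparison of the lines without Cre and the line-adjusted difference came from 1 edgeR model of 24 libraries with 4 group means. The code was tested on simulated counts. Shares and marker sums were compared by exact permutation over samples, two-sided. CPM shown use TMM factors over 48 libraries. Groups came from the sample titles, which number 6 biological replicates in each, and p-values measure the spread between them. The titles' numbers did not pair the samples, since the correlations of same-numbered libraries' deviations lay between -0.30 and 0.07. Alternatives were RLE factors, DESeq2 1.42.0, limma 3.58.1 (voom with group weights), other filters, other sets of libraries, the replicate block, the omission of the mitochondrial genes with ENSMUSG00000119584, and leaving out libraries.

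Named genes were Arntl, Nfil3, Myh6, the core clock list, the 15 highest and 15 lowest called genes with at least 1 CPM in either group, up to 4 called members of each of 47 lists by p (or the member with the smallest p where none was called), the 5 highest and 5 lowest genes between the lines without Cre, and the 4 most abundant genes of each marker list; other genes are marked in the text as named after their values were seen. The comparison and the lists were chosen with earlier results of these data known. A level at 0 is limited by depth, and 3 counts correspond to 0.106 to 0.202 CPM in these 12 libraries. Some genes that these rules name are not reported here.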

Additional observations from a re-analysis of the deposited data

Results flagged for a closer look

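In 27 of the 396 sets of 6 libraries examined, 1 library stood far from the other 5, and chance gives about 5% of sets. Levels are in CPM, with the range of the 5 other libraries of the same group.

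CBK replicate 5, the library with the lowest mitochondrial share, accounted for 10 of the 27. It was high for Hba-a1 at 462 (109 to 237), Hba-a2 at 72.2 (6.43 to 15.5) and Hbb-bs at 671 (169 to 343), the red cell globin genes. It was also high for Ces1d at 18.1 (6.32 to 8.37), Csnk1e at 65.1 (36.1 to 43.7), Slc27a4 at 55.2 (31.3 to 39.9), Tcap at 1392 (432 to 781), Rps15a-ps7 at 23.2 (2.46 to 9.31) and Gm45012 at 0.209 (0 in the others), and low for Hibch at 83.6 (105.7 to 111.9).

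CBK replicate 1 was high for Nr4a1 at 45.6 (7.35 to 21.0), Hspa1b at 12.6 (1.59 to 3.90) and Fbln1 at 113.5 (79.6 to 87.3). CBK replicate 6 was high for Kcne1 at 23.9 (12.4 to 16.3), CBK replicate 4 for Itgam at 1.96 (1.01 to 1.36) and CBK replicate 2 for Trim30d at 0.302 (0 to 0.0424). In CBK replicate 3, ENSMUSG00000119584 took 13.35% of assigned counts (1.03% to 2.21%).

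Cre CON replicate 1 was high for Kcnv2 at 14.2 (5.45 to 7.34), Myot at 53.2 (24.5 to 31.7) and Wt1 at 4.57 (2.99 to 3.53), and low for Slc16a1 at 191.8 (232 to 250) and Trib3 at 2.32 (3.07 to 3.48). Cre CON replicate 3 was high for the neutrophil genes S100a9 at 3.64 (0.180 to 0.924) and Csf3r at 3.48 (0.794 to 1.46) and the B cell gene Cd79a at 1.66 (0.578 to 0.946). Cre CON replicate 6 was high for Col14a1 at 31.5 (15.2 to 21.3) and Cre CON replicate 2 for Hbb-bt at 32.5 (11.4 to 18.7).

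The difference between the Bmal1 line and the Cre line was not the same with and without Cre at 447 genes, by the test of the line-adjusted difference in the 24-library edgeR model.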

How the results depend on the processing

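Of the 196 genes named by rule, no called one changed direction under any alternative tried. Some that were not called changed sign, and not only those near 0. Hba-a2, at a log2 fold change of 0.76, reached -0.38, and S100a9, at -0.75, reached 0.20. Where edgeR called 1194 genes, 594 higher and 600 lower, DESeq2 called 919 higher and 809 lower. In place of 12 libraries, a model of 24 called 2183 (1223 higher, 960 lower) and a model of 48 called 1939 (1018 higher, 921 lower). The replicate block, which takes the titles' numbers as pairs, called 662 (310 higher, 352 lower), but no CBK library's deviations correlated best with those of its own number, so the samples share only a number. Under RLE factors, limma, no filter, a 1 CPM filter, the omission of the mitochondrial genes with ENSMUSG00000119584, or without CBK replicates 3 and 5, 1013 to 1252 genes were called.

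Leaving out 1 library gave 836 (without Cre CON replicate 6) to 1410 calls (without CBK replicate 1), with 413 to 773 higher and 423 to 675 lower. The mitochondrial share differed by -8.76 to -6.15 percentage points (highest exact p = 0.006494). Between BMAL1 FLOX and WT, where edgeR called 46, DESeq2 called 71 (35 lower) and limma 81 (47 higher, 34 lower). The line-adjusted count of 447 lay between 361 with limma and 577 with DESeq2, and was 379 without WT replicate 1. Of the 196 named genes' calls or non-calls, 161 stood under the replicate block and 173 to 190 under the omission of 1 library. The cause of these changes was not tested. BMAL1 FLOX and WT had median biological coefficients of variation of 16.5% and 14.9%, between those of CBK and Cre CON. Genes near 0 have uncertain folds at this depth.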

Other observations

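Several genes with very small p belonged to no list and were named after their values were seen. Mid1ip1, whose product activates acetyl-CoA carboxylase in fatty acid synthesis, averaged 24.5 ± 3.94 CPM in CBK and 106 ± 9.39 CPM in Cre CON (SD, n = 6 each), a log2 fold change of -2.11 (edgeR adjusted p = 2.56e-08, SE 0.11). F3, the gene of tissue factor, which starts blood coagulation, averaged 6.56 ± 1.07 CPM in CBK and 22.2 ± 3.05 CPM in Cre CON, and fell by 1.75 on the log2 scale. Maob, which encodes a mitochondrial monoamine oxidase, averaged 19.6 ± 0.977 CPM in CBK and 46.0 ± 7.53 CPM in Cre CON, and fell by 1.22 on the log2 scale.

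Of the genes with very small p that rose, Igf2bp2 encodes an mRNA-binding protein and averaged 11.7 ± 1.61 CPM in CBK and 2.38 ± 0.582 CPM in Cre CON, a log2 fold change of 2.31 (edgeR adjusted p = 6.52e-07, SE 0.17). Colq, which encodes the collagen tail of acetylcholinesterase, averaged 28.1 ± 2.51 CPM in CBK and 7.10 ± 1.47 CPM in Cre CON, with a log2 fold change of 1.99. Myo5b, the gene of an unconventional myosin of vesicle transport, averaged 70.9 ± 10.3 CPM in CBK and 26.4 ± 2.94 CPM in Cre CON, with a log2 fold change of 1.43. The line-adjusted differences were -1.94 for Mid1ip1, -1.66 for F3, -1.17 for Maob, 2.46 for Igf2bp2, 2.01 for Colq and 1.29 for Myo5b, all called (edgeR adjusted p from 9.13e-10 to 5.58e-05). Among long intergenic RNA genes, 32 of 329 tested were called, 13 higher and 19 lower, a share near the background (9.73% against 8.15% of all genes tested).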
